A study of Xenopus tropicalis with 52 samples.

Results

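The mid-blastula transition (MBT) is the point at which the fast, synchronous cleavages of the frog embryo slow down and the zygotic genome becomes active. Here 9 cell cycle regulators of that period were followed in whole Xenopus tropicalis embryos from the mid-blastula to the late gastrula. They are a list of named genes, with no threshold on a measured value: the A-type cyclins ccna1 and ccna2, the B-type cyclins ccnb1 and ccnb2, the E-type cyclin ccne1, the kinases wee1, chek1 and plk1, and the growth arrest gene gadd45g (Xetro.A01580). All 9 were among the 19554 genes of the table of newly made RNA, and 8 of them were among the 28148 genes with exon counts and the 23701 genes with intron counts in the poly(A) RNA libraries. The kinase wee1 was read in the newly made RNA only.

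Cleavage divisions in frogs alternate DNA replication and mitosis with almost no gap phases and run on RNA and protein stored in the egg. A-type and B-type cyclins bind and activate Cdk1, cyclin E with Cdk2 starts replication, Wee1-type kinases hold Cdk1 off by phosphorylation, Chk1 (chek1) restrains the Cdc25 phosphatases that would release it, and Plk1 drives entry into and passage through mitosis. Ccna1 is the A-type cyclin of eggs, early embryos and germ cells, whereas Ccna2 serves most other dividing cells, and Gadd45 proteins respond to DNA damage and stress and, in mammalian cells, inhibit the Cdk1 and cyclin B complex.

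All embryos were wild type, of the outbred Nigerian strain. For newly made RNA, embryos received 75 ng of 4-thiouridine (4sU), a nucleotide that marks transcripts made after injection, and 30 embryos were collected at stage 8+ (the MBT) and at stage 10+ (early gastrula). Each stage gave 1 input library of total RNA and 1 library of the 4sU-enriched fraction. At stage 9+ (late blastula) 7 loss-of-function (LOF) groups stood against a control in DMSO, with 3 libraries each: canonical Wnt was blocked with 5 ng of a β-catenin morpholino (MO), Nodal with 100 µM SB431542 and BMP with 10 µM LDN193189, singly, in pairs and all together. The stage 9+ control was not injected, so each of the 4 groups with the β-catenin MO also set injected against uninjected embryos. In 4x zT LOF embryos MOs against zygotic vegt (5 ng), eomes (5 ng), tbxt and tbxt.2 (2.5 ng of each of 2 MOs per gene) were injected, against 20 ng of a control MO, with 4 libraries per group at stage 10+, 11+ (mid-gastrula) and 12+ (late gastrula). MOs block translation or splicing and leave the gene in place, and the inhibitors act on every cell of the embryo. The poly(A) libraries held 10 to 15 embryos each, so fewer cells of a type and less RNA per cell cannot be told apart in any of them.

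The 24 stage 9+ libraries held between 27710453 and 45443446 exon counts and the 24 later ones between 26586752 and 60984753, with 3.75 to 8.45 intron counts per 100 exon counts over both sets. Each replicate number carried its own frog letter in the file names of either set, and libraries with the same number deviated together. In the 4sU libraries 95.5% and 91.3% of the read pairs stayed unmapped at stage 8+ and 10+, against 39.5% and 50.4% in the inputs, and counts assigned to genes came to 888940 and 1538052 against 7884062 and 6470826. The translation-blocking β-catenin MO leaves no mark on its own RNA that would check the labels: ctnnb1 averaged 2587 ± 383 counts per 1000000 counts of the library (CPM, TMM-scaled) in controls and 2302 ± 90.9 in Wnt LOF (SD, n = 3). Among 16 tested region markers of the embryo, 8 were called lower in Wnt/Nodal/BMP LOF, where 2.99% of all genes were called. In 4x zT LOF 6 were lower and 2 higher at stage 10+ (17.4% of all genes called), but 3 lower and 9 higher at stage 12+ (37.8%). In BMP LOF 0 markers were called, as were 0% of all genes.

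The first comparison asked which of the regulators stood out in RNA made since 4sU injection, at the MBT and at the onset of gastrulation. Per the methods, injections were made into the zygote. The 4sU fraction thus holds labelled RNA made and kept since then, and at stage 10+ also what was kept from the MBT. Of the members with at least 10 input counts, gadd45g alone stood far above its input. It had 106 input and 143 4sU counts at stage 8+, and 206 and 289 at stage 10+. After scaling, its RNA was 15.0 times as abundant in the 4sU fraction as in the input at stage 8+ (95% exact interval 11.6 to 19.5) and 9.13 times at stage 10+ (7.61 to 11.0). These ratios lay at the 97.8 and 95.5 percentile of all genes measured. With 1 library per fraction and stage there is no test, and these intervals cover counting error only. None of the others reached a ratio of 2 at either stage. The count was thus 1 of 8 members at stage 8+ and 1 of 9 at stage 10+, where 17.4% and 23.3% of all genes reached it. A large stored pool in the input holds the ratio down, so a low ratio does not show a lack of new RNA. At stage 8+ the scaled 4sU value was 4183 for ccnb1 and 3504 for ccna1, against 449 for gadd45g. How much of each was labelled RNA was not tested.

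The mitotic cyclins were spread around the median of all genes, which was 0.764 at stage 8+ (11761 genes) and 0.684 at stage 10+ (11662 genes). For ccna1 the ratio was 1.39 (1.31 to 1.48) at stage 8+ and 0.475 (0.413 to 0.543) at stage 10+, from 1115 and 229 4sU counts. For ccnb1 it was 0.696 (0.658 to 0.736) and 0.278 (0.245 to 0.314), from 1331 and 273 4sU counts. Both were thus lower at the later stage, and at stage 10+ both lay below the median of all genes. Their relatives were not lower at the later stage with this scaling: ccna2 had ratios of 1.21 (1.07 to 1.37) and 1.4 (1.26 to 1.54), and ccnb2 of 0.937 (0.869 to 1.01) and 1.23 (1.15 to 1.31). For ccna2 this depended on the scaling. With counts divided by library totals its ratios were 0.967 and 0.902, slightly lower at the later stage. Those of ccnb2 were then 0.746 and 0.793, those of ccna1 1.11 and 0.307 and those of ccnb1 0.554 and 0.18.

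Of the other regulators, plk1 had the second highest ratios, 1.84 (1.69 to 2.0) at stage 8+ and 1.52 (1.37 to 1.68) at stage 10+. The ratio of ccne1 was 1.15 (1.04 to 1.27) and 0.731 (0.664 to 0.805), and that of the checkpoint kinase chek1 was 0.655 (0.52 to 0.816) and 1.2 (0.97 to 1.47). For wee1 there were only 9 and 22 input counts and 13 and 1 4sU counts. At stage 8+, where its input was under the minimum of 10 counts and it was not counted among the members measured, the scaled values were 40.9 in the 4sU fraction and 2.54 in the input, with an interval of 6.36 to 42.6 for their ratio, also far above the input. At stage 10+ its ratio was 0.296, with an interval from 0.00717 to 1.83. The gene wee2 (Xetro.C00078), for which the RefSeq annotation lists wee1 as a synonym, had 3049 and 1098 input counts and 4sU ratios of 1.0 and 0.7. The files separate wee1 from wee2 and ccnb1 from its near copy ccnb1.2 (Xetro.D01947). Per the methods, 4sU and input read pairs were counted only where their alignment was unique to a single gene. Reads shared within these pairs would thus have been left out.

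In the inputs, which hold total RNA, the levels of ccna1 and ccnb1 were less than 50% of their MBT levels by the early gastrula. For ccna1 the input counts were 8925 and 3142, which left 48.4% of the stage 8+ level (46.4 to 50.4), and for ccnb1 they were 21290 and 6396, which left 41.3% (40.1 to 42.5). These were 2 of 9 members lower by at least 2-fold, against 8.46% of all genes. The near copy ccnb1.2 stood at 126% of its stage 8+ input. On the other side, gadd45g reached 267% (210 to 341) and wee1 336% (149 to 829), which made 2 of 9 members higher by at least 2-fold against 9.14% of all genes. The wee1 value rests on 9 and 22 counts, and its interval reaches below 2-fold. It was counted because this comparison required 10 counts at either stage, not at both. Between them, chek1 was at 56.8% (51.5 to 62.5), plk1 at 73.5% (69.6 to 77.5), ccnb2 at 86.6% (83.8 to 89.6), ccna2 at 116% (110 to 123) and ccne1 at 131% (125 to 137). The median of the members was 0.866 as a ratio of stage 10+ to stage 8+, beside 1.05 over 12255 genes.

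**Figure D1:**
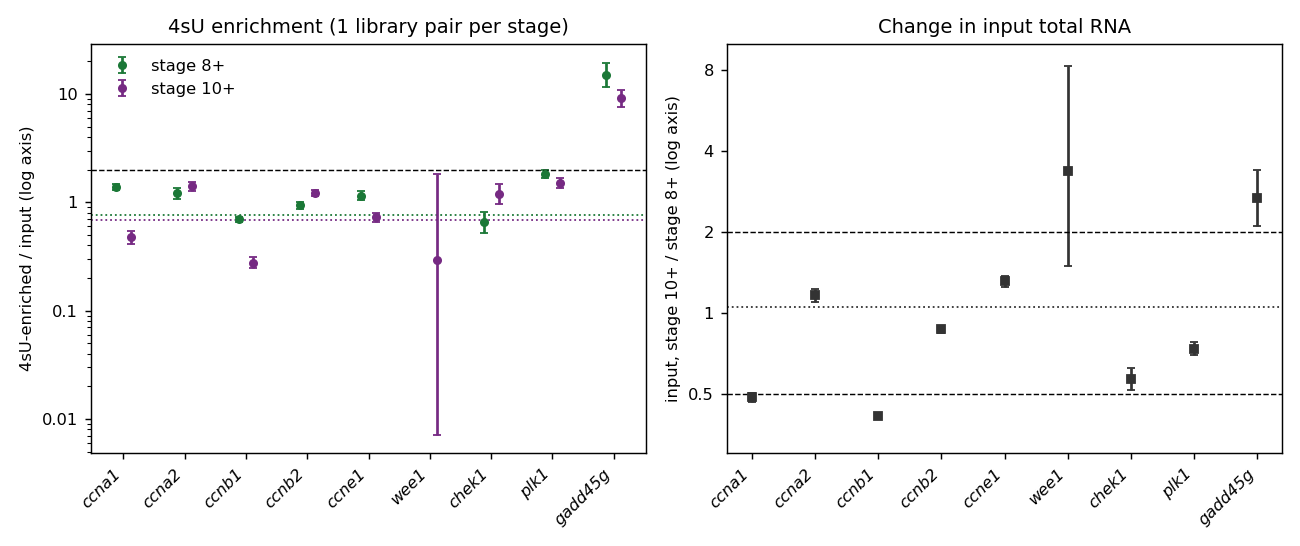
Left, ratio of 4sU-enriched to input RNA (log axis) for each of the 9 genes at stage 8+ (green) and 10+ (purple), 1 pair of libraries per stage; right, ratio of the stage 10+ input to the stage 8+ input (log axis). Bars are 95% exact intervals for counting error only, dotted lines the medians of all genes and dashed lines the 2-fold limits; gadd45g alone of the ratios drawn lies above 2 on the left (15.0 and 9.13; wee1 at stage 8+ had too few input counts to be drawn), and ccna1 and ccnb1 lie below the lower limit on the right.

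The second comparison followed the 8 genes with poly(A) counts through gastrulation in control MO embryos. The pair of cyclins that were lower by at least 2-fold in the stage 10+ input, ccna1 and ccnb1, fell most in poly(A) RNA. The other 3 cyclins and chek1 fell by less, and plk1 and gadd45g rose. Because only tailed RNA was kept, a fall in amount and a loss of tails cannot be told apart. From stage 10+ to 12+ all 8 were called by edgeR's quasi-likelihood test with a p of 0.1 or less after Benjamini-Hochberg adjustment over all genes, 6 of them lower and 2 higher. In that comparison 81.2% of the 17188 genes tested were called, and 41% were called lower. The median log2 fold change was -1.38 over the members and -0.04 over all genes.

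Cyclin ccna1 stood at 217, 169, 112 and 116 CPM in replicates 1 to 4 at stage 10+, at 30.4, 26.0, 12.2 and 13.2 at stage 11+ and at 3.60, 3.55, 4.71 and 3.11 at stage 12+. Cyclin ccnb1 stood at 439, 437, 286 and 289.7 CPM, then at 94.4, 102, 57.3 and 53.9, and finally at 6.47, 9.86, 7.37 and 6.33. No library of a later stage overlapped any of an earlier one for either gene. By stage 12+ ccna1 was at 2.45% of its stage 10+ level (log2 fold change -5.35 ± 0.33 SE, adjusted p = 2.09e-12) and ccnb1 at 2.06% (-5.60 ± 0.26, adjusted p = 3.7e-14). Both fell at each step, ccna1 by 2.91 and then by 2.44 on the log2 scale and ccnb1 by 2.24 and then by 3.36.

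The A-type cyclin of later divisions, ccna2, stood at 1132, 1107, 1042 and 1134 CPM at stage 10+, at 897, 822, 719.9 and 772 at stage 11+ and at 457, 440.2, 477 and 439 at stage 12+. The second B-type cyclin, ccnb2, stood at 752, 655, 534 and 577, then at 523, 469, 414 and 403, and finally at 259.9, 223, 228 and 199.7. The stages did not overlap for either gene. Of the stage 10+ level, 41.1% was left for ccna2 (log2 fold change -1.28 ± 0.06, adjusted p = 4.74e-14) and 36.2% for ccnb2 (-1.47 ± 0.10, adjusted p = 8.59e-12) at stage 12+.

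Cyclin ccne1 kept its level until the mid-gastrula and then fell. It stood at 611, 664, 626 and 635 CPM at stage 10+, at 646, 604, 544 and 567 at stage 11+ and at 235, 183, 183 and 173 at stage 12+. The first 2 stages overlapped (log2 fold change -0.10 ± 0.08, adjusted p = 0.3), and the last lay far below both. From stage 11+ to 12+ it fell by 1.61 ± 0.08 on the log2 scale (adjusted p = 7.18e-13). The first step depended on the scaling: with counts divided by library totals the change was -0.31 and was called (adjusted p = 0.00301). That scaling moved the median of all genes by -0.20 from stage 10+ to 11+, by -0.16 from 11+ to 12+ and by -0.38 from 10+ to 12+. It turned the direction of no called change of the 8 genes. The uncalled changes of plk1 and gadd45g from stage 11+ to 12+ were smaller than the shift at that step, so their direction depends on the scaling. In the RefSeq annotation, which is of another assembly than the one used for counting, ccne1 overlaps the locus LOC549154. Counting used no strand, so their reads may not be told apart if the overlap also holds in the counted annotation. None of the other 8 members overlaps a gene in RefSeq.

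The checkpoint kinase chek1 changed least. It stood at 58.4, 53.5, 44.3 and 67.1 CPM at stage 10+, at 42.8, 39.9, 44.2 and 51.0 at stage 11+ and at 41.8, 37.2, 41.9 and 45.1 at stage 12+. The groups overlapped at every step, and 74.4% was left at stage 12+ (log2 fold change -0.43 ± 0.12, adjusted p = 0.00337). Its fall from stage 10+ to 11+ (-0.33 ± 0.12, adjusted p = 0.0291) was lost without replicate 1 (adjusted p = 0.167) and without replicate 2 (adjusted p = 0.11).

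The mitotic kinase plk1 rose instead. Its libraries stood at 318, 335, 361 and 363 CPM at stage 10+, at 497, 462, 592 and 529.6 at stage 11+ and at 559, 529, 616 and 539 at stage 12+. The stage 10+ libraries lay below all later ones, whereas stages 11+ and 12+ overlapped. The log2 fold change was 0.60 ± 0.08 from stage 10+ to 11+ (adjusted p = 2.56e-06) and 0.11 ± 0.08 from 11+ to 12+ (adjusted p = 0.246; with DESeq2's size factors it was 0.20 and called, adjusted p = 0.0324).

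Growth arrest gene gadd45g stood at 33.7, 50.02, 34.6 and 39.5 CPM at stage 10+, at 52.6, 69.8, 60.8 and 61.2 at stage 11+ and at 59.6, 68.8, 56.5 and 69.9 at stage 12+. As for plk1, the first stage lay below the other 2, which overlapped. It rose by 0.63 ± 0.12 on the log2 scale from stage 10+ to 11+ (adjusted p = 0.000177) and differed by 0.06 ± 0.12 after that (adjusted p = 0.687).

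By step, 5 of the 8 genes were called lower and 2 higher from stage 10+ to 11+, where 57.7% of all genes were called and 29.2% were called lower. From stage 11+ to 12+ all 5 called genes, the cyclins, were lower, where 72.2% were called and 36% were called lower. The median log2 fold change of the members was -0.39 and -0.91 at these steps, beside 0.00 and -0.03 over all genes.

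**Figure D2:**
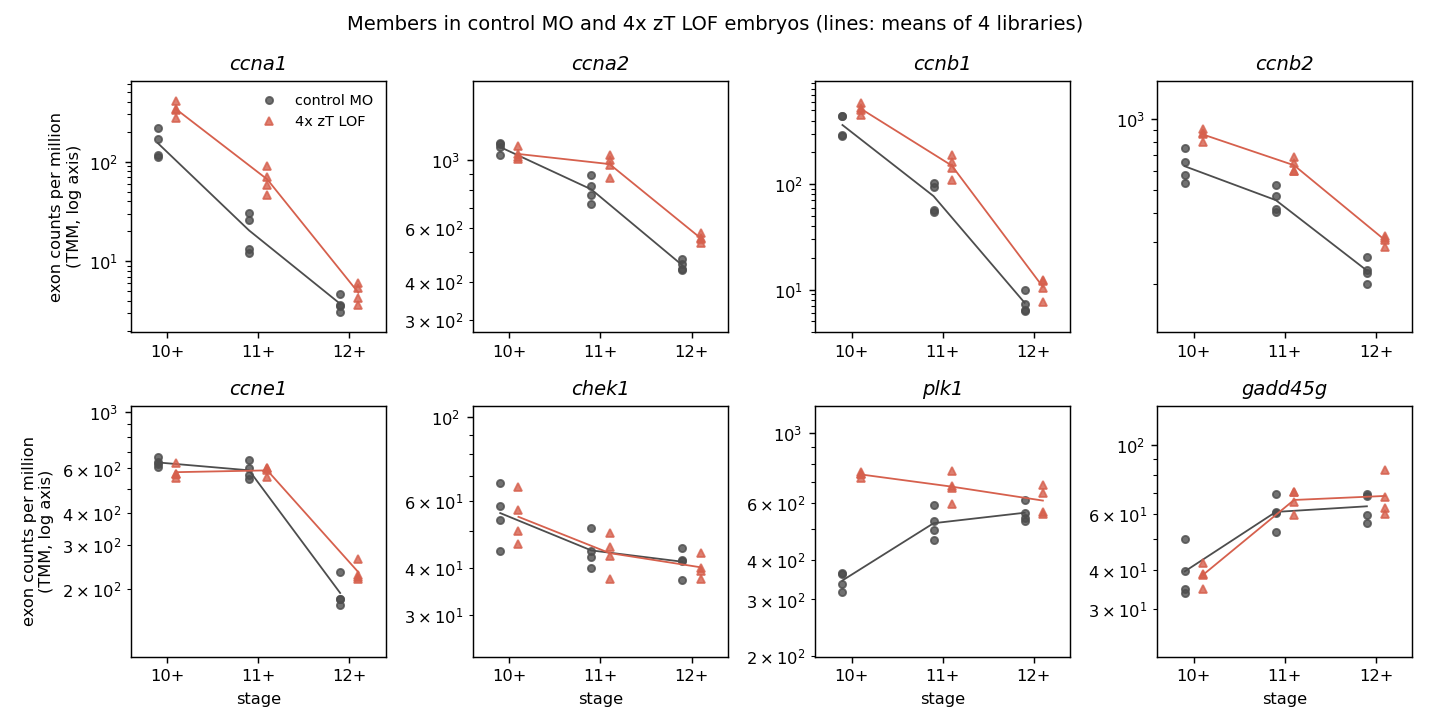
Exon CPM (log axis) of the 8 genes against stage in control MO embryos (grey circles) and 4x zT LOF embryos (red triangles), 4 libraries per group and stage, with lines through the means. Cyclins ccna1 and ccnb1 drop from above 100 CPM to below 13 in both conditions, and plk1 at stage 10+ lies at 720.1 to 753 in 4x zT LOF against 318 to 363 in control MO embryos.

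Intron counts come mostly from RNA that has not been spliced, and their direction over the stages depended on the scaling. Over all genes, control MO libraries held 4.02 to 4.91 intron counts per 100 exon counts at stage 10+, 5.6 to 5.94 at stage 11+ and 6.69 to 7.27 at stage 12+. Scaled within the intron counts, as in all intron CPM given here, the introns of all 7 genes tested were called lower from stage 10+ to 12+, where 71.9% of 13026 genes were called. Scaled with the sizes of the exon libraries, an alternative chosen after seeing the data, none of the 7 was called lower and 2 were called higher, where 79.5% of genes were called. That scaling moved the median log2 change of all introns from 0.05 to 1.19. The introns of ccnb1, with 0 to 7 counts per library, did not pass the filter.

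For plk1, whose exons rose, the introns fell by 0.46 ± 0.15 on the log2 scale relative to all introns (adjusted p = 0.00951) and rose by 0.66 ± 0.19 with the exon sizes (adjusted p = 0.00299). Its median share of intron counts per 100 exon counts was 1.88 at stage 10+, 2.2 at stage 11+ and 1.86 at stage 12+. It thus stood at about the same value at the first and last stage, while the share over all genes rose. For gadd45g the introns fell by 0.98 ± 0.22 relative to all introns (adjusted p = 0.000425) and differed by 0.17 ± 0.21 with the exon sizes (adjusted p = 0.468), and the share was 3.42, 2.34 and 2.36. Intron libraries of gadd45g stood at 35.4, 39.4, 27.7 and 31.3 CPM at stage 10+ and at 16.3, 17.9, 13.2 and 20.0 at stage 12+, with no overlap. Those of plk1 stood at 135, 145, 198 and 184 and at 126, 119, 124 and 111, again with no overlap.

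The introns of the cyclins and chek1 fell relative to all introns. Those of ccna1 fell by 0.88 ± 0.35 on the log2 scale (adjusted p = 0.0301), where its exons fell by 5.35, and with the exon sizes they differed by 0.24 ± 0.37 (adjusted p = 0.563). The median share of ccna1 intron counts per 100 exon counts went from 0.221 at stage 10+ to 2.42 at stage 11+ and 10.3 at stage 12+, where that of all genes went from 4.58 to 5.64 and 7. These ccna1 values rest on few intron counts, 10 to 25 per library at stage 10+, 11 to 25 at stage 11+ and 3 to 16 at stage 12+. Single libraries at stage 12+ had ccna1 shares from 3.53 to 19.8. For chek1 the introns fell by 1.01 ± 0.13 relative to all introns (adjusted p = 2.39e-07) and differed by 0.14 ± 0.14 with the exon sizes (adjusted p = 0.365). Its share was 19.3, 28.1 and 29.1, higher at the later stages as it was over all genes. Relative to all introns those of ccna2 fell by 0.79, those of ccnb2 by 1.34 and those of ccne1 by 1.04, whereas with the exon sizes ccna2 rose by 0.36 ± 0.12 (adjusted p = 0.00791), ccne1 differed by 0.09 and ccnb2 by -0.19.

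At the single steps, 1 member (chek1, -0.37 ± 0.13, adjusted p = 0.0243) was called in introns from stage 10+ to 11+ relative to all introns, where 41.9% of all genes were, and 6 were called, all lower, from stage 11+ to 12+, where 59.5% were. With the exon sizes 3 were called higher at the first step, where 50.9% of genes were called, namely plk1 (0.76), ccna2 (0.46) and ccne1 (0.36), and 1 lower at the second, ccnb2 (-0.48), where 64.4% were. Exon and intron changes were fitted separately, and the difference between them was not tested.

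The third comparison asked how the regulators stood in embryos injected with MOs against zygotic T-box transcription factors, which pattern the mesoderm and endoderm. None of the 8 genes was called lower at any stage. At stage 10+ 3 were called higher, where 17.4% of all genes were called and 9.37% were called higher; with the replicate number as a block 4 were, where 33.3% of genes were called. At stage 11+ 5 were higher (33.7% called, 16.8% higher) and at stage 12+ 3 were higher (37.8% called, 21.4% higher), or 5 with the block. The share of all genes called with the block at stage 12+ is not given here. Over all 3 stages 5 of 8 were higher (41.9% called, 21.6% higher), with a median log2 fold change of 0.31 over the members and 0.01 over all genes. The members that moved were 4 mitotic cyclins and plk1, with ccne1 joining at stage 12+.

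The largest differences were those of ccna1. In 4x zT LOF embryos it stood at 337, 332, 277 and 406 CPM at stage 10+, at 59.1, 69.8, 46.1 and 91.7 at stage 11+ and at 3.63, 5.37, 4.31 and 6.05 at stage 12+. All libraries of stage 10+ and 11+ lay above every control MO library of the same stage, whereas the groups overlapped at stage 12+. The level was 219.8% of the control MO level at stage 10+ (log2 fold change 1.14 ± 0.27, adjusted p = 0.0059), 326% at stage 11+ (1.71 ± 0.28, adjusted p = 7.89e-05) and 129% at stage 12+ (0.37 ± 0.31, adjusted p = 0.399). Within replicate numbers the log2 difference at stage 11+ ranged from 0.96 in replicate 1 to 2.79 in replicate 4. At stage 11+ these libraries lay between the control MO libraries of stage 10+ and those of stage 11+.

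Cyclin ccnb1 stood at 527, 592, 455 and 501 CPM at stage 10+, at 142, 161, 109 and 187 at stage 11+ and at 7.63, 12.4, 10.4 and 12.1 at stage 12+. At stage 10+ and 11+ its 4x zT LOF libraries did not overlap those of the control MO. It rose by 0.96 ± 0.22 on the log2 scale at stage 11+ (adjusted p = 0.00184). At stage 10+ the difference was 0.52 ± 0.21 (adjusted p = 0.126) and at stage 12+ 0.51 ± 0.23 (adjusted p = 0.107). With the replicate number as a block both were called (adjusted p = 0.0179 and 0.0354).

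Cyclin ccnb2 was the steadiest of the called genes. It stood at 870.2, 858, 799.5 and 903 CPM at stage 10+, at 652, 602, 601 and 687 at stage 11+ and at 305, 287, 320.2 and 311 at stage 12+, above all control MO libraries at each stage. The log2 fold changes were 0.45 ± 0.10 (adjusted p = 0.00288), 0.49 ± 0.10 (adjusted p = 0.000594) and 0.43 ± 0.10 (adjusted p = 0.00187).

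Cyclin ccna2 stood at 1113, 1046, 1025 and 1007 CPM at stage 10+, at 1042, 877, 964 and 1002 at stage 11+ and at 558, 535, 577 and 555 at stage 12+. It overlapped the control MO libraries at stage 10+ and 11+ and lay above all of them at stage 12+. The log2 fold change was -0.08 ± 0.06 at stage 10+ (adjusted p = 0.53), 0.27 ± 0.06 at stage 11+ (adjusted p = 0.0017) and 0.30 ± 0.06 at stage 12+ (adjusted p = 0.000784).

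For ccne1 the 4x zT LOF libraries stood at 572, 632, 548 and 569 CPM at stage 10+, at 605, 605, 557 and 592 at stage 11+ and at 228, 220.0, 225 and 263 at stage 12+. They overlapped the control MO libraries at each stage. It was called at stage 12+ (log2 fold change 0.27 ± 0.08, adjusted p = 0.0129), and the call was lost without replicate 4 (0.16, adjusted p = 0.254).

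The kinase plk1 had the difference that was largest beside its standard error. In 4x zT LOF embryos it stood at 743, 720.1, 753 and 742 CPM at stage 10+, at 669, 598, 682 and 759 at stage 11+ and at 645, 556, 685 and 564 at stage 12+. At stage 10+ every library lay above all 12 control MO libraries of any stage, of which the highest was 616. The level was 215% of the control MO level at stage 10+ (log2 fold change 1.10 ± 0.08, adjusted p = 7.7e-09) and 130.2% at stage 11+ (0.38 ± 0.08, adjusted p = 0.00129). At stage 12+ it was 109% (0.13 ± 0.08, adjusted p = 0.264), which was called with the replicate block (adjusted p = 0.0964).

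Neither chek1 nor gadd45g was called at any stage. In 4x zT LOF embryos chek1 stood at 56.8, 50.04, 46.1 and 65.2 CPM at stage 10+, at 45.3, 37.3, 43.0 and 49.4 at stage 11+ and at 40.1, 39.3, 37.3 and 43.8 at stage 12+. The gadd45g values were 34.7, 42.0, 38.7 and 38.4, then 65.8, 70.7, 70.6 and 59.9 and finally 60.4, 83.4, 62.8 and 68.4. All of these ranges overlapped those of the control MO. The log2 fold changes over the stages were -0.04 ± 0.07 for chek1 (adjusted p = 0.75) and 0.07 ± 0.07 for gadd45g (adjusted p = 0.516).

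The difference between the conditions itself changed with stage for 4 of the 8 genes, where 27.1% of all genes were called, and for 4 with the replicate block, where 48.6% were. By the F test of stage and condition these were plk1 (adjusted p = 1.17e-05), ccna2 (0.00428), ccne1 (0.0344) and ccna1 (0.059). Only plk1 kept the call whichever replicate number was left out. The call of ccna1 was lost without replicate 2, 3 or 4 (adjusted p between 0.163 and 0.217), that of ccne1 without replicate 2, 3 or 4 (0.132 to 0.418) and that of ccna2 without replicate 4 (0.134).

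The introns did not follow the exons of plk1. At stage 10+, where its exons were higher, its intron libraries stood at 125, 117, 149 and 124 CPM in 4x zT LOF and at 135, 145, 198 and 184 in control MO embryos. The groups overlapped, and the LOF value was the lower one in 4 of 4 replicate numbers (log2 fold change -0.36 ± 0.15, adjusted p = 0.164, and 0.0614 with the replicate block; -0.35 ± 0.19 with the exon sizes, adjusted p = 0.353). The median share of plk1 intron counts per 100 exon counts was 0.677 in 4x zT LOF and 1.88 in control MO embryos at that stage, where that of all genes was 4.64 and 4.58. In introns at stage 10+ the members called were ccna2 (-0.34 ± 0.11, adjusted p = 0.0726) and ccne1 (-0.49 ± 0.13, adjusted p = 0.0153), both lower, where 11.3% of all genes were called, and with the block chek1 was called higher as well (0.31, adjusted p = 0.0125). At stage 11+ chek1 was called higher (0.34 ± 0.13, adjusted p = 0.0675), where 21.7% were, and at stage 12+ none was, where 30.6% were. Over the stages ccna2 and ccne1 were called lower in introns (-0.20 and -0.21) and ccnb2 and chek1 higher (0.23 and 0.25), where 38.9% were. With the exon sizes the calls of ccna2 at stage 10+ (adjusted p = 0.135) and over the stages (0.215), of ccne1 over the stages (0.279) and of chek1 at stage 11+ (0.16) were lost, and ccnb2 was called higher at stage 12+ (0.47 ± 0.18, adjusted p = 0.0548); 8.66%, 19%, 30.2% and 34.5% of all genes were then called at stages 10+, 11+ and 12+ and over the stages. The introns of ccna1 differed by 0.70 ± 0.32 at stage 10+ (adjusted p = 0.218, and 0.068 with the block) and by 0.06 ± 0.34 at stage 11+ (adjusted p = 0.934), the stage at which its exons differed most.

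**Figure D3:**
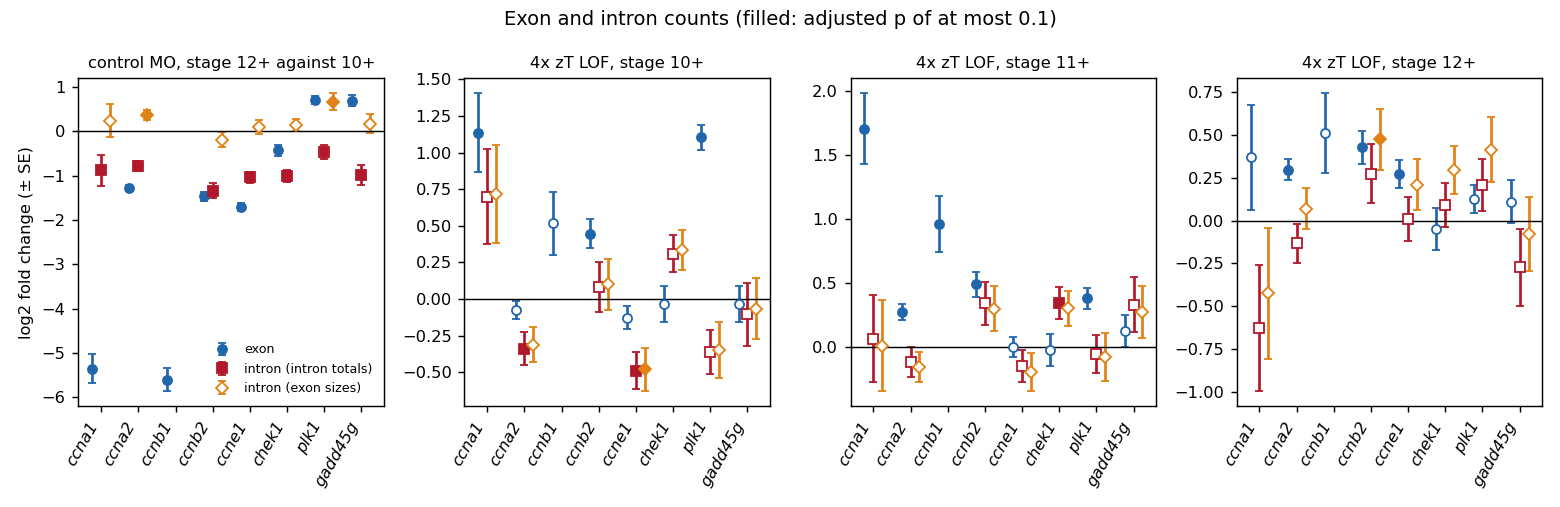
Log2 fold change with its standard error for exon counts (blue circles), intron counts scaled among themselves (red squares) and intron counts scaled with the exon libraries (orange diamonds) of the 8 genes, in control MO embryos from stage 10+ to 12+ and in 4x zT LOF against control MO embryos at each stage, n = 4 libraries per group. Filled symbols have an adjusted p of at most 0.1; in the first panel the red introns lie below 0 for all 7 genes drawn while the orange ones of plk1 and ccna2 are filled and above it, and plk1 introns lie below 0 on both scales at stage 10+ of 4x zT LOF, where its exons lie above it. The panels have different vertical scales.

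The fourth comparison set the 7 signal LOF groups against the control at stage 9+, shortly after the MBT. In exon counts 0 of 8 genes was called in any of them by edgeR without the replicate block, and 1 with it, gadd45g in Wnt/Nodal/BMP LOF. Without the block the share of all 16001 genes called was 2.99% after the triple block (Wnt/Nodal/BMP LOF), 2.39% for Wnt/Nodal LOF, 1.74% for Wnt/BMP LOF, 0.587% for Nodal/BMP LOF, and 1.15%, 0.681% and 0% for the single blocks of Wnt, Nodal and BMP. Across the 8 groups it was 3.09%. With the block these shares were 8.14%, 6.06%, 7.59%, 2.82%, 3.97%, 2.28% and 0.0437% in the same order, and 8.16% across the groups. Without replicate 2, 88 genes were called in place of 478 in the triple LOF and 11 in place of 279 in Wnt/BMP LOF. In BMP LOF 217 genes had an unadjusted p under 0.05, and DESeq2 called 2. The 3 interactions of pairs of signals gave 0% called, with 144 (Wnt and Nodal), 78 (Wnt and BMP) and 175 (Nodal and BMP) genes at an unadjusted p under 0.05 and 4, 0 and 0 calls by DESeq2. All these counts of unadjusted p lie below a share of 0.05 of the 16001 genes, the share that chance alone would give. The fit without the block was thus conservative at stage 9+, and a lack of calls in it does not show a lack of differences.

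The member with the widest differences was gadd45g. Its control libraries stood at 76.2, 68.9 and 76.3 CPM. The BMP LOF libraries stood at 63.7, 65.8 and 50.5, those of Nodal LOF at 38.2, 36.5 and 22.5 and those of Nodal/BMP LOF at 46.3, 39.5 and 25.8. No library of these groups overlapped the control. The Wnt LOF libraries stood at 37.6, 54.6 and 38.3, those of Wnt/BMP LOF at 7.13, 33.1 and 33.0, those of Wnt/Nodal LOF at 5.72, 38.7 and 33.4 and those of the triple LOF at 4.35, 20.3 and 28.6. These did not overlap the control either, and replicate 1 lay far below the others in the 3 groups that joined the β-catenin MO with an inhibitor. Its part in the result was not tested beyond leaving it out.

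The fitted log2 fold changes of gadd45g were -0.30 ± 0.61 for BMP LOF, -0.76 ± 0.61 for Wnt LOF, -1.19 ± 0.62 for Nodal LOF and -0.99 ± 0.61 for Nodal/BMP LOF (adjusted p = 1 for each). They were -1.51 ± 0.62 for Wnt/Nodal LOF (adjusted p = 0.534), -1.60 ± 0.62 for Wnt/BMP LOF (adjusted p = 0.421) and -2.06 ± 0.63 for the triple LOF (adjusted p = 0.131). The last was called with the replicate block (-2.20, adjusted p = 0.0323), without replicate 1 (-1.56, adjusted p = 0.0195) and by DESeq2 (-2.05, adjusted p = 0.0178). The value was lower than the control in 3 of 3 replicate numbers in each of the 7 groups.

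In intron counts gadd45g was called lower in 5 of the 7 groups, or in 4 with the exon sizes. Its intron libraries stood at 82.5, 46.5 and 55.8 CPM in the control, with Wnt LOF at 17.4, 31.8 and 17.1, Nodal LOF at 25.4, 14.5 and 12.5 and Nodal/BMP LOF at 28.0, 20.2 and 6.72. Wnt/Nodal LOF had 10.6, 16.8 and 16.5, Wnt/BMP LOF had 6.22, 15.8 and 16.0 and the triple LOF had 8.18, 8.07 and 30.3. None of these overlapped the control, whereas BMP LOF, at 61.1, 51.7 and 40.8, did. With the exon sizes the share of all genes called in the 7 groups is not given here. The count of 4 groups thus cannot be set against it.

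The log2 fold changes of the introns were -1.81 ± 0.50 for Nodal LOF (adjusted p = 0.0832), -1.75 ± 0.50 for Nodal/BMP LOF (0.0941, and 0.128 with the exon sizes), -2.28 ± 0.51 for Wnt/BMP LOF (0.0206), -2.06 ± 0.51 for Wnt/Nodal LOF (0.0277) and -1.98 ± 0.50 for the triple LOF (0.0259). They were -1.46 ± 0.49 for Wnt LOF (adjusted p = 0.292) and -0.26 ± 0.47 for BMP LOF (adjusted p = 1). No other member was called in introns. Thus 1 of the members was called in each of these 5 groups, where the share of 11499 genes was 2.01%, 2.23%, 2.59%, 3.37% and 4.36% in the same order, and 0 in Wnt LOF and BMP LOF, where it was 1.15% and 0%. Across the 8 groups gadd45g was called as well (adjusted p = 0.0118), where 4.2% of genes were. These intron counts were low, between 10 and 93 per library. No interaction of signals was called for gadd45g in introns (adjusted p = 1 for each).

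The cyclins ccna1 and ccnb1 had higher means in the groups with the β-catenin MO, but the difference rested mainly on 1 replicate number. For ccna1 the control stood at 160.1, 318 and 351 CPM and Wnt LOF at 725, 417 and 372. For ccnb1 the control stood at 399.9, 731 and 840.0 CPM and Wnt LOF at 1296, 991 and 865. In both the Wnt LOF libraries lay above all controls, and replicate 1 held the lowest control and the highest LOF value. The log2 difference of ccna1 was 2.18 in replicate 1, 0.39 in replicate 2 and 0.08 in replicate 3. The fitted values were 0.87 ± 0.39 for ccna1 (adjusted p = 0.881) and 0.68 ± 0.28 for ccnb1 (adjusted p = 0.738), and without replicate 1 they came down to 0.24 for each. Across the 8 groups ccnb1 had an adjusted p of 0.384 by edgeR and 0.0366 by DESeq2.

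The remaining genes had small fitted differences from the control at stage 9+. Over the 7 groups the log2 fold changes ran from 0.01 to 0.08 for ccna2 and from -0.03 to 0.04 for ccne1, with standard errors of 0.05 and 0.07. They ran from -0.19 to 0.18 for ccnb2, from 0.07 to 0.24 for chek1 and from 0.00 to 0.14 for plk1, with standard errors of 0.20, 0.14 and 0.10. None of these was called. In Wnt LOF, replicate 1 again stood above replicates 2 and 3 for ccnb2 (log2 differences 0.645, -0.0304 and -0.127), chek1 (0.675, 0.000268 and -0.0753) and plk1 (0.34, -0.089 and -0.189). It did not for ccna2 (0.0685, 0.0823 and 0.0135) or ccne1 (-0.0939, 0.0233 and 0.0848).

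**Figure D4:**
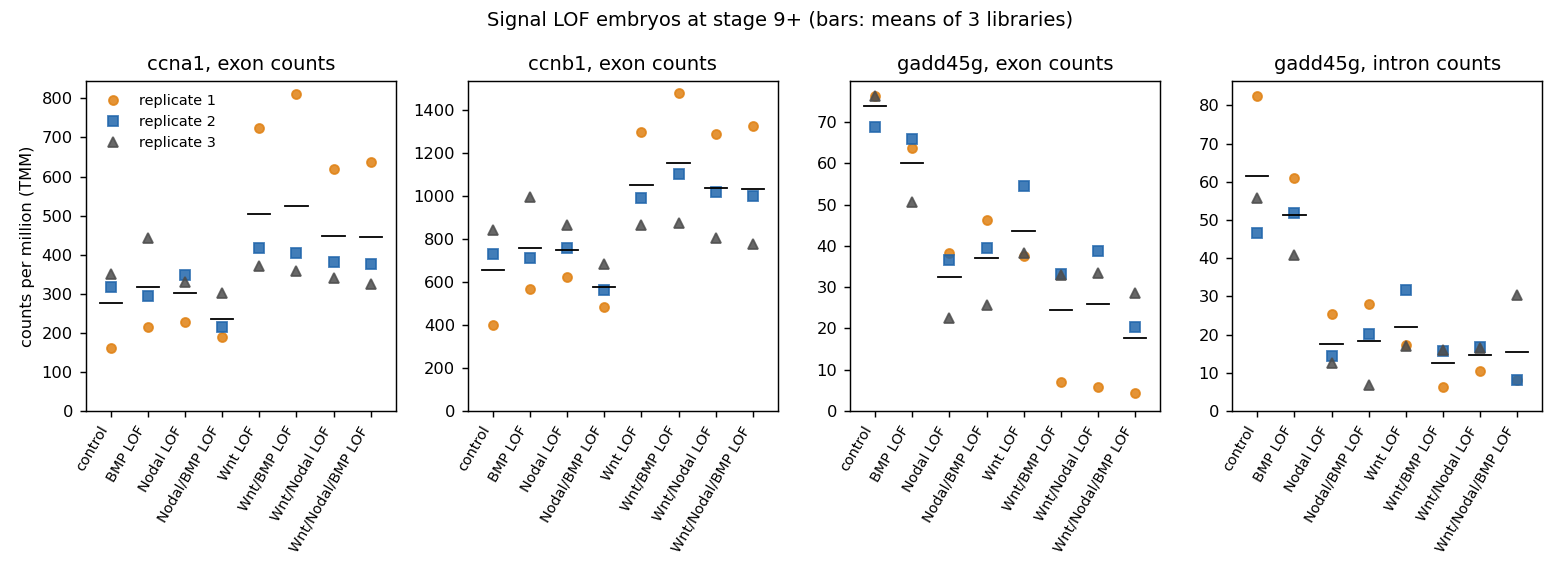
Levels in CPM of ccna1 and ccnb1 (exons) and gadd45g (exons and introns) in the 8 groups at stage 9+, with 1 symbol per library by replicate number and a bar at the mean of 3 libraries; the vertical axes start at 0. In introns of Wnt/Nodal/BMP LOF replicates 1 and 2 coincide (8.18 and 8.07); gadd45g lies below the control in all LOF groups in exons, and the ccna1 and ccnb1 values of replicate 1 are the highest in the groups with the β-catenin MO.

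The other genes of the cell cycle were read from lists of 123 genes drawn up by function, of which 115 were tested. In the 4sU fraction 21 of 113 measured genes reached a ratio of 2 at stage 8+ and 33 of 113 at stage 10+, which is 18.6% and 29.2% beside the 17.4% and 23.3% of all genes. The list drawn up as growth arrest led at stage 8+ with 6 of 8 (gadd45a, btg1, btg3, btg5, ier2 and tob1) and a median ratio of 2.95. At stage 10+ it had 5 of 8, with a median of 4.45, and no longer led. Among other cyclins 5 of 10 reached it at stage 8+ (ccnb3, ccnd1, ccne2, ccnf and ccno) and 7 of 10 at stage 10+, with medians of 1.71 and 5.04. By contrast the checkpoint list, to which chek1 is related, had 1 and 2 of 14, with medians of 0.415 and 0.649, and the replication list 1 and 3 of 27.

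In control MO embryos 58 of the 115 were called lower and 35 higher from stage 10+ to 12+, which is 80.9%, close to the share of all genes. Of all 17188 genes 7051 (41%) were called lower and 6899 higher. The checkpoint list had 10 of 14 lower and 1 higher, with a median log2 fold change of -1.26, and the replication list 17 of 27 lower and 6 higher, with a median of -0.57. The largest falls were those of mcm3, a subunit of the replicative helicase (-3.56 ± 0.15, adjusted p = 7.29e-15), wee2 (-2.91 ± 0.18, adjusted p = 2.92e-12) and anapc1, a subunit of the ubiquitin ligase that destroys cyclins (-2.83 ± 0.10, adjusted p = 1.05e-15). The largest rises were those of cdknx, a CDK inhibitor of Xenopus (3.15 ± 0.18, adjusted p = 6.22e-13), the helicase subunit mcm6.2 (2.60 ± 0.15, adjusted p = 1.02e-12) and the replication factor gins1 (2.17 ± 0.20, adjusted p = 1.3e-09).

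In 4x zT LOF embryos 40 of 115 were called higher and 17 lower over the stages, 49.6% in all, where 21.6% of all genes were called higher, 20.3% lower and 41.9% in all. Among the kinases that restrain Cdk1, wee2 was higher at each stage. It averaged 171 ± 52.3, 48.5 ± 12.5 and 22.9 ± 2.52 CPM in control MO embryos at the 3 stages and 430.0 ± 6.61, 205 ± 13.2 and 37.7 ± 4.75 in 4x zT LOF embryos (SD, n = 4), and it rose by 1.33 at stage 10+ (adjusted p = 1.34e-05), by 2.08 at stage 11+ (adjusted p = 2.61e-08) and by 0.72 at stage 12+ (adjusted p = 0.00297) on the log2 scale. Its introns were lower in 4 of 4 replicate numbers at each stage, with log2 fold changes of -0.51 ± 0.11 (adjusted p = 0.00319), -0.50 ± 0.11 (0.00181) and -0.32 ± 0.11 (0.0317) relative to all introns, and of -0.49, -0.55 and -0.11 with the exon sizes, of which the last was not called (adjusted p = 0.542). Besides it, the CDK inhibitor cdkn2d (1.64 ± 0.19, adjusted p = 5.32e-07) and the replication licensing factor cdc6 (0.88 ± 0.13, adjusted p = 1.45e-05) rose most over the stages. Among the falls were those of anapc2, a core subunit of the same ubiquitin ligase (-1.57 ± 0.13, adjusted p = 2.73e-09), and the antiproliferative gene btg1 (-0.55 ± 0.09, adjusted p = 8.95e-05).

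At stage 9+ few of these genes were called, from 0 of 115 in BMP LOF to 3 lower and 3 higher in Wnt/Nodal/BMP LOF, which is 5.22% beside 2.99% of all genes. The Polo-like kinase plk3, which serves in stress responses in mammalian cells, fell in 5 of the 7 groups, by 1.17 ± 0.17 on the log2 scale in Nodal LOF (adjusted p = 0.00308) and by 1.25 ± 0.17 in Wnt/Nodal LOF (adjusted p = 0.000349). It averaged 133 ± 2.44 CPM in the control and 59.4 ± 11.9 in Nodal LOF. The replication kinase activator dbf4 rose in all 4 groups with the β-catenin MO, by 0.35 to 0.40.

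As a description, the genes whose pattern was most like that of each member were found over 14 group means of log2 CPM, centred within each of the 2 sets, among 9842 genes. Genes of 1 set share libraries, depth and stages, so high values are common. For gadd45g the closest were tbxt, the mesodermal T-box gene (Pearson r = 0.952), arhgap39 (0.951) and nrp2 (0.934). For ccna1 they were lnpep (0.998), tmco6 (0.995) and c12orf51 (0.994), and for ccnb1 amacr (0.996), ano2 and nbeal1 (0.995 each). For ccna2 they were homer3, tyw3 and pik3r4 (0.997 each), for ccnb2 syt14 (0.992) and chac1 (0.99), and for ccne1 gtpbp1 (0.999), timm50 (0.998) and alg13 (0.997). For chek1 they were cenpm (0.978), mrps15 (0.96) and coasy (0.953). The least matched member was plk1, with znf217 (0.899), ncapd2, a condensin subunit (0.888), and gfer (0.884).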

How the data were processed

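Poly(A) RNA from 48 libraries and 4sU libraries of total RNA were deposited as read counts per gene. Per the labels and methods, the authors aligned the poly(A) reads with STAR 2.5.3a to genome assembly v7.1 and counted exons and introns without regard to strand, and mapped the rRNA-depleted 4sU reads with Bowtie2 2.1.0 to transcripts. Poly(A) selection keeps tailed RNA only, so tail length and amount cannot be told apart. The deposited counts were tested with edgeR 4.0.16 (TMM scaling, filterByExpr, quasi-likelihood F test, Benjamini-Hochberg adjustment over all genes, calls at 0.1, R 4.3.3). The stage 9+ fit held 8 groups, the later one 6. The 4sU ratios used DESeq2 1.42.0 size factors, at least 10 input counts and exact intervals at 95%, without a test. Same-numbered libraries, which share a frog letter, deviated together (r between 0.382 and 0.814, against -0.567 to 0.101 for other numbers). Deviations were taken from the group mean, so positive values for the same number by themselves push those for other numbers down. No pair of libraries agreed within counting noise. The paper calls the poly(A) replicates biological. Beyond the frog letter no source says that they came from separate animals, so p-values measure the spread between these libraries. All members were named in every comparison; from the cell cycle lists at most 3 falls and 3 rises per comparison were eligible, among called genes averaging at least 50 counts whose replicate numbers all moved one way, and 3 similar genes per member. A gene eligible by this rule is not reported here. Members and lists were chosen with earlier results of these data known. Alternatives were the replicate block, DESeq2 with its size factors, library totals, no filter, introns, only the groups compared, each replicate number left out, and, chosen after seeing the data, introns with the block and introns scaled with the exon library sizes. Sequences were not used here. The fits were run on simulated counts drawn independently, with the same spread for all genes and no replicate effect. That run does not show how they behave on libraries that deviated together. Library sizes and 4sU totals bound the precision given beside each value.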

Additional observations from a re-analysis of the deposited data

Results flagged for a closer look

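In control MO embryos at stage 12+, replicate 1 stood apart from the other 3 libraries for ccne1. It had 235 exon CPM against 173 to 183, a gap of 0.843 of the whole range, and 135 intron CPM against 113 to 115, a gap of 0.911. These were 2 of 90 groups of libraries examined, and chance alone sets apart about 1 in 20. Because this library is the highest of its group, it lies inside the 4x zT LOF range (220.0 to 263), which is why the groups overlapped at that stage.

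The difference between 4x zT LOF and control MO embryos changed between stages 10+, 11+ and 12+ for 4 genes, by edgeR's F test of stage and condition. For plk1 (adjusted p = 1.17e-05) it shrank from 1.10 to 0.38 and 0.13 on the log2 scale. For ccna2 (adjusted p = 0.00428) it went from -0.08 to 0.27 and 0.30, for ccne1 (adjusted p = 0.0344) from -0.13 to 0.00 and 0.27, and for ccna1 (adjusted p = 0.059) from 1.14 to 1.71 and 0.37. Which of these calls depend on single replicate numbers is given with the comparison.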

How the results depend on the processing

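Over the fitted log2 fold changes of single members in exon counts, no direction of a called value turned under another scaling, filter, tool, the replicate block or without a replicate number, and 459 of 464 fits without a replicate, 134 of 136 with DESeq2 and 132 of 136 with the block stayed on the same side of the threshold. The replicate block made 4 more calls, raising the members called in Wnt/Nodal/BMP LOF to 1 (gadd45g) and in 4x zT LOF at stage 12+ to 5, and it changed no other call of exon counts than these and ccnb1 at stage 10+. DESeq2 called 1 member in Wnt/Nodal/BMP LOF and 1 across the 8 groups. Without a replicate number the members called ranged from 0 to 1 in Wnt/Nodal/BMP LOF, from 0 to 1 across the 8 groups (gadd45g without replicate 1, adjusted p = 0.0966) and from 1 to 4 for the difference between stages. Library totals lost ccne1 for that difference (adjusted p = 0.14), and ccne1 in control MO embryos from stage 10+ to 11+ was called without replicate 1 (-0.17, adjusted p = 0.0695). A pseudocount of 1 with no minimum raised the members at a 4sU ratio of 2 to 2 at stage 8+, by adding wee1 at 15.6 from 9 input counts. Library totals in place of size factors gave gadd45g ratios of 12.0 and 5.9, and ccna1 and ccnb1 input ratios of 0.429 and 0.366.

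Introns are another measure, and several results differed in them. The members called in introns were 1 each in Nodal, Nodal/BMP, Wnt/BMP, Wnt/Nodal and Wnt/Nodal/BMP LOF and across the 8 groups, 1 in 4x zT LOF at stage 11+, 0 at stage 12+, 0 for the difference between stages and 1 in control MO embryos from stage 10+ to 11+. With the block as well they were 1 in each of the same LOF groups, 2 across the 8 groups, 5, 2 and 1 in 4x zT LOF at stages 10+, 11+ and 12+ and 1 from stage 10+ to 11+. The shares of all genes called in introns with the block are not given here, so these counts do not show whether the members exceeded them. Sign changes are listed here only where the exon or the intron value was called, and those between uncalled values are left out. The log2 values that changed sign in this way, without and with the block, were these in control MO embryos: gadd45g -0.301 and -0.307 (10+ to 11+), -0.682 and -0.679 (11+ to 12+) and -0.983 and -0.986 (10+ to 12+), and plk1 -0.721 and -0.714 (11+ to 12+) and -0.465 and -0.477 (10+ to 12+). In 4x zT LOF they were plk1 -0.363 and -0.374, and chek1 0.315 with the block, at stage 10+, ccna2 -0.117 and -0.112, chek1 0.341 and 0.349 and plk1 -0.0547 and -0.0496 at stage 11+, and ccna2 -0.133 and -0.131 at stage 12+. Over the stages they were ccna2 -0.196 and -0.193, ccne1 -0.21 and -0.209, chek1 0.248 and 0.252 and plk1 -0.0693 and -0.0701. The cause was not tested.

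With introns scaled by the exon libraries, also chosen after seeing the data, the members called were 1 each in Nodal, Wnt/BMP, Wnt/Nodal and Wnt/Nodal/BMP LOF and across the 8 groups, 1, 0 and 1 in 4x zT LOF at stages 10+, 11+ and 12+, 2 over the stages, 0 for the difference between stages, and 3, 1 and 2 in control MO embryos from stage 10+ to 11+, 11+ to 12+ and 10+ to 12+. The shares of all genes called with this scaling are not given here for the signal LOF groups, across the 8 groups or for the difference between stages. Those counts thus do not show whether the members exceeded them. Sign changes are again listed only where the exon or the intron value was called. Against the exons the sign changed in control MO embryos for ccna1 (0.207, 0.0317 and 0.239 in that order), ccna2 (0.456 and 0.363 from stage 10+ to 11+ and 12+), ccnb2 (0.287, 10+ to 11+), ccne1 (0.362 and 0.0932, 10+ to 11+ and 12+) and chek1 (0.154 and 0.141, likewise). It changed in 4x zT LOF for plk1 (-0.349 at stage 10+, -0.0812 at stage 11+ and -0.00519 over the stages), ccna2 (-0.154 at stage 11+ and -0.133 over the stages) and chek1 (0.311 over the stages).

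Counts of all genes called moved more than those of the members. With the block 365, 452, 636, 1214, 969 and 1303 genes were called in Nodal, Nodal/BMP, Wnt, Wnt/BMP, Wnt/Nodal and Wnt/Nodal/BMP LOF, against 109, 94, 184, 279, 382 and 478 without it, 7 against 0 in BMP LOF, 1306 against 494 across the groups, 5718 against 2985 in 4x zT LOF at stage 10+ and 8346 against 4664 for the difference between stages. DESeq2 called 227, 217, 310 and 482 in Nodal, Nodal/BMP, Wnt and Wnt/BMP LOF and 801 across the groups, and with only the groups compared in the fit the 4 groups with the β-catenin MO gave 24 (Wnt), 20 (Wnt/BMP), 187 (Wnt/Nodal) and 211 (Wnt/Nodal/BMP). Without replicate 2 these counts were lowest, 8, 12, 13, 11, 97 and 88 in the order given first and 75 across the groups, and without replicate 4 the later comparisons gave 1530 at stage 10+, 3454 at stage 11+ and 2120 for the difference between stages. In introns 231 and 257 genes were called in Nodal and Nodal/BMP LOF, 1470, 2821 and 3985 in 4x zT LOF (2985, 5785 and 6489 in exons), 969 for the difference between stages, and 5454 and 7753 at the control MO steps (9921 and 12415 in exons).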
